A study of Mus musculus with 17 samples.

Results

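The nuclear genes for subunits of respiratory complexes II, III, IV and V and for cytochrome c were followed in mouse pancreatic islets. Of 33 genes listed by symbol, 32 had a probe set annotated to that gene alone, out of 19938 genes tested in all. Where a gene had several probe sets, the 1 with the highest mean intensity across the 17 arrays was used, and all 3 probe sets are given for Uqcrb. Cox7c was found only on 3 probe sets that also name another gene and was not analysed here. The 32 genes comprise 4 of complex II, 7 of complex III, Cycs for cytochrome c, 9 of complex IV and 11 of complex V.

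Islets came from untreated mice at an age of 2 months, and total RNA was hybridised to Affymetrix whole-transcript arrays. The groups were wild type (wt, 3 arrays), mice with only the RIP-Cre transgene (3 arrays), Men1flf RIP-Cre (3 arrays), Rbp2flf RIP-Cre (4 arrays) and Men1flf Rbp2flf RIP-Cre, the double knockout (4 arrays). RIP-Cre makes Cre recombinase from the rat insulin promoter, so floxed alleles are deleted in insulin-producing beta cells, while the islet RNA also holds that of other islet cells. Men1 encodes menin, a tumour suppressor of endocrine tissue. Rbp2 is an older name of Kdm5a, a histone demethylase. All groups but wt carry RIP-Cre, which therefore served as the control. The titles number the arrays as repeats without naming separate animals, so p-values measure only the spread between these arrays. In bulk islets, fewer cells of a type and less RNA per cell cannot be told apart.

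Complex II oxidises succinate, as a step of the citric acid cycle, and passes the electrons to ubiquinone. Complex III hands electrons from ubiquinol to cytochrome c, and complex IV passes them from cytochrome c to oxygen. Complexes III and IV pump protons, and complex V, the ATP synthase, uses the returning protons to make ATP. In beta cells the ATP made from glucose closes potassium channels, which opens the way to calcium entry and insulin release.

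Values are log2 intensities. Men1 served as a check of the labels: it lay between 9.25 and 9.49 on the 6 control arrays, between 8.14 and 8.43 in Men1flf RIP-Cre, between 10.05 and 10.24 in Rbp2flf RIP-Cre and between 8.46 and 8.87 in the double knockout. The fall against RIP-Cre was -1.06 (limma adjusted p = 3.08e-05) in Men1flf RIP-Cre and was -0.77 (adjusted p = 0.000558) in the double knockout. Kdm5a differed from RIP-Cre by -0.22 (adjusted p = 0.149) in Rbp2flf RIP-Cre and by -0.02 (adjusted p = 0.896) in the double knockout. It was higher in Men1flf RIP-Cre than in Rbp2flf RIP-Cre by 0.40 (adjusted p = 0.0220). Whether its probe set lies in the deleted part was not analysed here, so it does not check the labels. The arrays also differed in their overall distribution. The median over all genes was 7.97 to 8.16 in RIP-Cre, 7.86 to 7.87 in Men1flf RIP-Cre, 7.82 to 7.98 in Rbp2flf RIP-Cre and 7.88 to 7.95 in the double knockout. The SD over genes was 1.32 to 1.50 on control arrays and 1.50 to 1.64 on knockout arrays. Over the 32 subunit genes, wt array 2 was the highest of its group in 32, RIP-Cre array 1 in 27 and Rbp2flf RIP-Cre array 1 in 26, and RIP-Cre array 3 was the lowest in 24.

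With the transgene alone, no subunit gene passed the test. In RIP-Cre against wt the median log2 difference was -0.07, no gene was called at an adjusted p under 0.05 by limma, and none had an unadjusted p under 0.05. Of all genes, 0% were called and 2.77% had an unadjusted p under 0.05. The farthest from 0 were Atp5g3 (-0.24, SE 0.14), Uqcrb (-0.51, SE 0.38) and Cox7b (-0.22, SE 0.18), each with an adjusted p of 1. Without wt array 2, the median was 0.09.

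In each knockout most subunit genes rose against RIP-Cre and none fell. In Men1flf RIP-Cre 24 of 32 rose, with a median log2 difference of 0.60 over the 32, while 15.7% of all genes rose, 37.8% fell and the median of all genes was -0.23. In Rbp2flf RIP-Cre 19 rose with a median of 0.54, against 6.70% of all genes higher, 6.70% lower and a median of -0.13. In the double knockout 24 rose with a median of 0.69, against 13.0% higher, 20.6% lower and a median of -0.15. Subunit genes with an unadjusted p under 0.05 numbered 24, 24 and 27, all of them higher. Of all genes 61.1%, 38.3% and 47.8% had such a p in either direction. These comparisons share the 3 RIP-Cre arrays, so their values are given side by side and are not independent of each other. The counts depended on the scaling of the arrays. After cyclic loess normalization, which removes level-dependent differences between arrays, 17, 8 and 23 subunit genes rose and none fell, against 17.6%, 5.52% and 13.4% of all genes higher, and their medians were 0.47, 0.35 and 0.48. With the array median as a covariate the medians were 0.19, 0.27 and 0.33 and 0, 0 and 1 genes were called. In that fit 1.06%, 0.16% and 0.86% of all genes were called higher. Cox4i1 was then at -0.0053 and Cox8a at -0.011 in Men1flf RIP-Cre. Without RIP-Cre array 3, 17, 0 and 16 rose, beside 11.5%, 0.622% and 6.30% of all genes. Without Rbp2flf RIP-Cre array 1 or 2 the count in Rbp2flf RIP-Cre was 2 or 6, beside 1.25% or 2.84% of all genes higher.

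**Figure D1:**
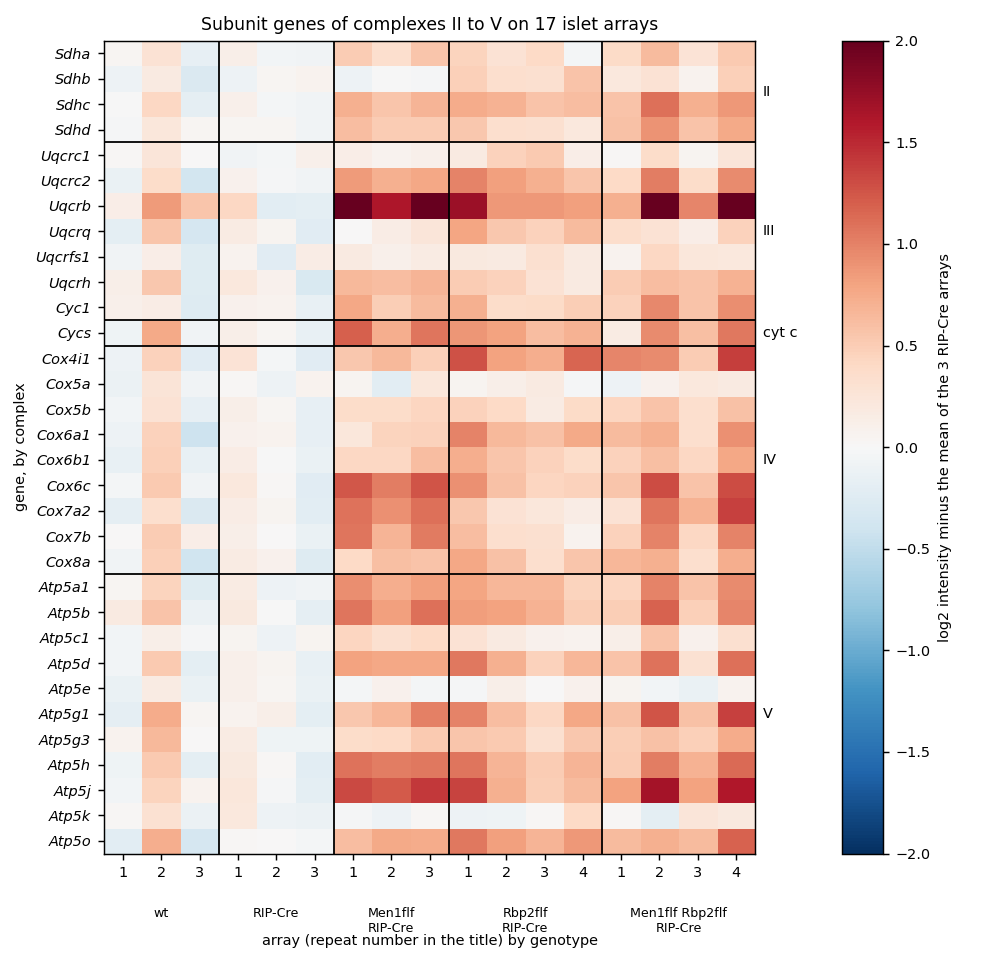
Log2 intensity of the 32 subunit genes (rows, by complex) on 17 arrays (columns, by genotype), each minus the mean of the 3 RIP-Cre arrays. Knockout arrays are redder in most rows, wt array 2 is the highest wt array in 32 of 32 rows, and in the rows of Cox5a, Atp5e and Atp5k every group overlaps RIP-Cre.

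Against the level of expression, the subunit genes stood mostly among the brightest probe sets. By mean over 17 arrays, 23 of 32 lay in the highest decile of all genes, 5 in decile 9, 3 in decile 8 and 1 (Uqcrfs1) in decile 6. Genes of the highest decile tended upward in all 3 knockouts: 40.7% rose in Men1flf RIP-Cre, 25.7% in Rbp2flf RIP-Cre and 39.8% in the double knockout, with medians of 0.20, 0.18 and 0.21. Of the 23 subunit genes in that decile, 19, 16 and 19 rose, with medians of 0.65, 0.64 and 0.69. After cyclic loess the medians of the decile were -0.0014, -0.0091 and 0.0078, and those of the 23 subunit genes 0.44, 0.46 and 0.48, with 11, 6 and 17 called higher.

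**Figure D2:**
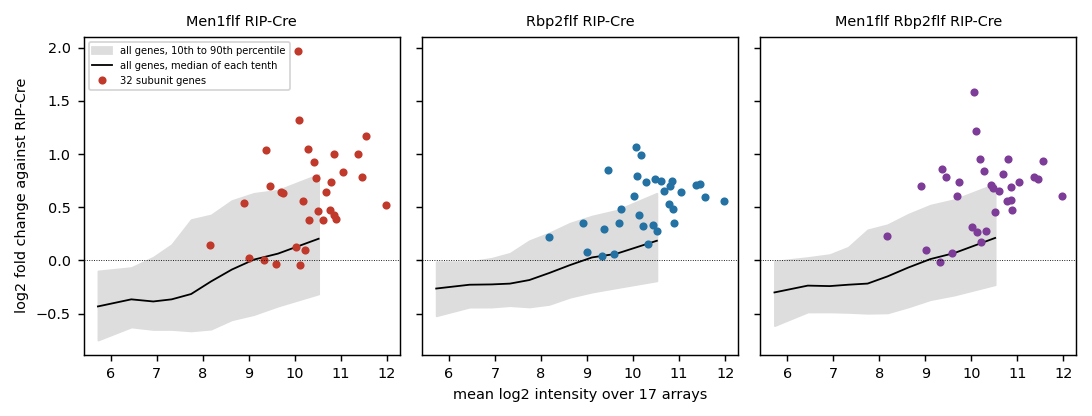
Log2 fold change against RIP-Cre (vertical) by mean log2 intensity over 17 arrays (horizontal) in each knockout. The black line is the median of all genes in each decile of level and the grey band their 10th to 90th percentile, and most of the 32 subunit genes (points) lie above the line, including the 19, 16 and 19 called higher in the top decile.

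The promoters of genes that moved together can be set beside the values. RefSeq promoters on GRCm38.p6, from 250 bases before to 50 after a start site, were at hand for 24 of the 32 genes, and not for Sdhc, Uqcrc2, Uqcrb, Uqcrq, Cyc1, Cox4i1, Cox6c and Atp5a1. The 7 motifs below were chosen after the expression values were seen and were searched on both strands, and overlapping motifs were each counted. The site of NRF1, a factor known to act on respiratory chain genes, was searched as GCATGCGC and was found in 5 of 24 promoters (20.8%), against 3.05% of 27025 genes. The ETS site CCGGAAG, bound by GABP among others, was in 10 (41.7%) against 9.93%. CCAAT was in 14 (58.3%) against 41.1%, the GC box GGGCGG in 9 (37.5%) against 38.2%, and the estrogen-related receptor site CAAGGTCA in 2 (8.33%) against 1.76%. The YY1 site AAGATGGC was in 1 (4.17%) against 3.19%, and TATAAA was in 0 against 15.7%. Of the genes with a promoter, 17 were called in Men1flf RIP-Cre and 7 were not. The NRF1 letters were in 1 of the 17 (Cycs) and 4 of the 7 (Sdhb, Uqcrc1, Cox6a1 and Atp5k), the ETS letters in 6 and 4, CCAAT in 11 and 3, the GC box in 5 and 4, the receptor site in 2 and 0 and the YY1 letters in 1 and 0. The 5 windows of 30 bases are shown so that these genes can be compared, with capitals marking the NRF1 letters on either strand. They lie at chr4:140961206-140961235 (+) for Sdhb, chr9:108936667-108936696 (+) for Uqcrc1, chr6:50566611-50566640 (-) for Cycs, chr5:115349102-115349131 (-) for Cox6a1 and chr5:108434431-108434460 (-) for Atp5k. The Uqcrc1 match begins 30 bases after the start site and the others lie before it.
Sdhb: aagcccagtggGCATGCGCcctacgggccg
Uqcrc1: gactccgctctGCGCATGCGCagcgcggct
Cycs: catgctagctcGCATGCGCgcgcacaaacc
Cox6a1: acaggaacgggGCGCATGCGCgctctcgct
Atp5k: ctttcactgcgGCGCATGCGCctttctggc

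The 200 bases before the start site are shown for Atp5b, Atp5h and Cycs, which rose in all 3 knockouts, and for Sdhb, which passed the test in Rbp2flf RIP-Cre but not in Men1flf RIP-Cre. Capitals mark NRF1, ETS, CCAAT and GC box letters on either strand. Atp5b (chr10:128083107-128083306, +) held 4 CCAAT and 2 GC box matches in this stretch, and Atp5h (chr11:115419920-115420119, -) held 1 ETS and 2 CCAAT matches. Cycs (chr6:50566570-50566769, -) held 1 NRF1 and 1 CCAAT match, and Sdhb (chr4:140961071-140961270, +) held 1 NRF1, 1 CCAAT and 3 GC box matches.
Atp5b: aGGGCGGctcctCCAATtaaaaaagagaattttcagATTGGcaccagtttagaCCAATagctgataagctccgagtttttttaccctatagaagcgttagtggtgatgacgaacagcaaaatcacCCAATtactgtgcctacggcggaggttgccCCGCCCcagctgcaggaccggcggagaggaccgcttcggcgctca
Atp5h: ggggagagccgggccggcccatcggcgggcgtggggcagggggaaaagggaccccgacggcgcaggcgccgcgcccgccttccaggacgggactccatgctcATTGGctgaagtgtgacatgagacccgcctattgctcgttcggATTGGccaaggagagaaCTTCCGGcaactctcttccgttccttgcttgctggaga
Cycs: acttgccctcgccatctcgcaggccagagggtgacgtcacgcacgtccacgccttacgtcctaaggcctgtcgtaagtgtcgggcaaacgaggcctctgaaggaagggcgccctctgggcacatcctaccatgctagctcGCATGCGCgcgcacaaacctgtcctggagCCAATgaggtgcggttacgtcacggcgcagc
Sdhb: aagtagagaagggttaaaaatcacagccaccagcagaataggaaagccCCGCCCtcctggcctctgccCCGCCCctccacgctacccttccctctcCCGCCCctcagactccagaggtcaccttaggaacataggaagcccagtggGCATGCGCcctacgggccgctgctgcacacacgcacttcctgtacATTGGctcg

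Complex II has 4 subunits, and 3 of the 4 genes rose in each knockout, with Sdhb in place of Sdha in Rbp2flf RIP-Cre. Sdha, the flavoprotein that oxidises succinate, read 10.37, 10.20 and 10.18 in RIP-Cre, 10.76, 10.58 and 10.80 in Men1flf RIP-Cre, 10.70, 10.54, 10.65 and 10.21 in Rbp2flf RIP-Cre and 10.63, 10.89, 10.52 and 10.77 in the double knockout. Only Rbp2flf RIP-Cre, through its array 4, overlapped RIP-Cre. Sdha rose by 0.46 (SE 0.14, limma adjusted p = 0.0130) in Men1flf RIP-Cre and by 0.45 (SE 0.13, adjusted p = 0.0179) in the double knockout, and differed by 0.28 (adjusted p = 0.132) in Rbp2flf RIP-Cre. Sdhb, the iron-sulfur subunit, read 9.88, 10.01 and 10.04 in RIP-Cre, 9.88, 9.97 and 9.96 in Men1flf RIP-Cre, 10.45, 10.31, 10.29 and 10.55 in Rbp2flf RIP-Cre and 10.18, 10.27, 10.05 and 10.46 in the double knockout. Men1flf RIP-Cre thus stayed within the range of RIP-Cre, and all 4 Rbp2flf RIP-Cre arrays were above both. Sdhb rose by 0.42 (SE 0.12, adjusted p = 0.0305) in Rbp2flf RIP-Cre and differed by -0.04 (95% interval -0.30 to 0.22) in Men1flf RIP-Cre and by 0.26 (adjusted p = 0.0826) in the double knockout. On the wt arrays Sdha read 10.29, 10.54 and 10.09, and Sdhb 9.87, 10.15 and 9.68.

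The membrane anchors of complex II, Sdhc and Sdhd, rose in all 3 knockouts. Sdhc read 10.20, 10.61 and 10.03 in wt, 10.31, 10.16 and 10.14 in RIP-Cre, 10.91, 10.75 and 10.89 in Men1flf RIP-Cre, 10.94, 10.90, 10.78 and 10.82 in Rbp2flf RIP-Cre and 10.77, 11.30, 10.92 and 11.07 in the double knockout. Every knockout array was above every control array of either kind. The rises of Sdhc against RIP-Cre were 0.65 (SE 0.14), 0.66 (SE 0.13) and 0.81 (SE 0.13), with limma adjusted p of 0.00248, 0.0129 and 0.00147. Sdhd read 8.53, 8.78 and 8.58 in wt, 8.58, 8.58 and 8.48 in RIP-Cre, 9.16, 9.05 and 9.05 in Men1flf RIP-Cre, 9.09, 8.89, 8.86 and 8.75 in Rbp2flf RIP-Cre and 9.14, 9.44, 9.12 and 9.30 in the double knockout. Only array 4 of Rbp2flf RIP-Cre reached down into the wt range. Its rises were 0.54, 0.35 and 0.70, and in the double knockout Sdhd was the 1 subunit gene still called with the array median as a covariate (0.51, adjusted p = 0.0184).

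In complex III, 4 of 7 genes rose in Men1flf RIP-Cre, 3 in Rbp2flf RIP-Cre and 4 in the double knockout. Uqcrb, which encodes a small subunit near a ubiquinone site, had the largest difference of the 32 genes in each knockout. It read 9.14, 9.85 and 9.55 in wt, 9.41, 8.79 and 8.80 in RIP-Cre, 11.21, 10.62 and 11.07 in Men1flf RIP-Cre, 10.71, 9.87, 9.87 and 9.82 in Rbp2flf RIP-Cre and 9.71, 11.45, 9.98 and 11.19 in the double knockout. The Men1flf RIP-Cre arrays lay above all control arrays, and the double knockout split into arrays 2 and 4, as high as Men1flf RIP-Cre, and arrays 1 and 3, near arrays 2 to 4 of Rbp2flf RIP-Cre and in reach of wt array 2. Uqcrb rose 3.91-fold in Men1flf RIP-Cre, by 1.97 on the log2 scale (SE 0.38, limma adjusted p = 0.00137), and by 1.58 (SE 0.36, adjusted p = 0.00612) in the double knockout. In Rbp2flf RIP-Cre it differed by 1.07 (SE 0.36) with an adjusted p of 0.0547.

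The other probe sets of Uqcrb gave the same picture. The second read 9.35, 8.78 and 8.78 in RIP-Cre, 10.97, 10.40 and 10.85 in Men1flf RIP-Cre, 10.47, 9.71, 9.72 and 9.63 in Rbp2flf RIP-Cre and 9.55, 11.18, 9.80 and 10.93 in the double knockout. The third read 9.09, 8.46 and 8.33 in RIP-Cre, 11.01, 10.35 and 10.81 in Men1flf RIP-Cre, 10.45, 9.63, 9.56 and 9.47 in Rbp2flf RIP-Cre and 9.33, 11.18, 9.64 and 10.93 in the double knockout. Array 1 of Rbp2flf RIP-Cre and arrays 2 and 4 of the double knockout were high on all 3 probe sets. In wt the second read 9.08, 9.79 and 9.34 and the third 8.73, 9.50 and 9.27. In a fit over all single-gene probe sets the second and the third rose in Men1flf RIP-Cre by 1.77 (limma adjusted p = 0.00170) and 2.10 (adjusted p = 0.00135), and differed by 0.91 (adjusted p = 0.0706) and 1.15 (adjusted p = 0.0536) in Rbp2flf RIP-Cre. These probe sets target 1 gene, so their likeness is no independent replication.

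**Figure D3:**
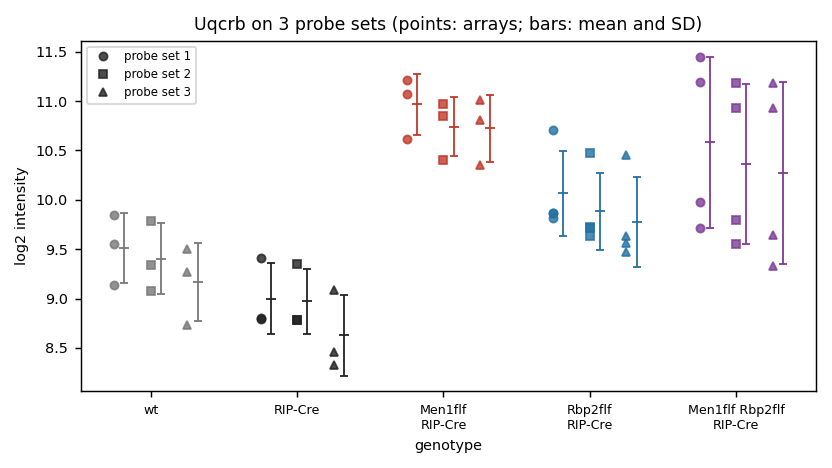
Log2 intensity (vertical) of Uqcrb on its 3 probe sets by genotype (horizontal), with a point for each array and a bar for mean and SD. The 3 Men1flf RIP-Cre arrays lie above all control arrays on each probe set, and the double knockout splits into a high pair and a low pair.

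Cyc1, cytochrome c1 of complex III, read 9.44, 9.49 and 9.09 in wt, 9.43, 9.41 and 9.19 in RIP-Cre, 10.11, 9.84 and 9.98 in Men1flf RIP-Cre, 10.05, 9.71, 9.72 and 9.83 in Rbp2flf RIP-Cre and 9.81, 10.30, 9.92 and 10.28 in the double knockout. No knockout array overlapped a control array. It rose by 0.63 (SE 0.15), 0.48 (SE 0.14) and 0.73 (SE 0.14) against RIP-Cre, with limma adjusted p of 0.00359, 0.0355 and 0.00283. Uqcrc2, a core protein on the matrix side, rose in all 3 knockouts, by 0.78, 0.77 and 0.68, while its partner Uqcrc1 did not pass the test in any. Uqcrc1 read 9.99, 10.03 and 10.17 in RIP-Cre, 10.19, 10.13 and 10.17 in Men1flf RIP-Cre, 10.24, 10.52, 10.58 and 10.20 in Rbp2flf RIP-Cre and 10.09, 10.43, 10.11 and 10.30 in the double knockout, and wt lay at 10.08, 10.31 and 10.07. Only in Rbp2flf RIP-Cre were all arrays of Uqcrc1 above RIP-Cre (0.32, 95% interval 0.08 to 0.56, adjusted p = 0.0609).

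The smaller complex III genes were mixed. Uqcrq, a small membrane subunit, read 9.59, 10.33 and 9.45 in wt, 9.95, 9.83 and 9.56 in RIP-Cre, 9.78, 9.93 and 10.02 in Men1flf RIP-Cre, 10.57, 10.32, 10.24 and 10.42 in Rbp2flf RIP-Cre and 10.13, 10.07, 9.92 and 10.24 in the double knockout. Rbp2flf RIP-Cre stood clear of RIP-Cre and the other knockouts overlapped it. Uqcrq rose by 0.61 (SE 0.17, limma adjusted p = 0.0310) in Rbp2flf RIP-Cre and differed by 0.13 (95% interval -0.25 to 0.51) in Men1flf RIP-Cre and by 0.31 (adjusted p = 0.147) in the double knockout. Uqcrh, the hinge protein that helps cytochrome c1 dock with cytochrome c, rose by 0.65 in Men1flf RIP-Cre and by 0.60 in the double knockout, and differed by 0.35 (adjusted p = 0.104) in Rbp2flf RIP-Cre. Uqcrfs1, the Rieske iron-sulfur protein, passed in none, at 0.15, 0.22 and 0.23, and had its values between 7.80 and 8.45 on the 17 arrays. After cyclic loess Uqcrfs1 did pass in the double knockout (0.35, limma adjusted p = 0.0281).

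Cycs, somatic cytochrome c, rose 2.00-fold in Men1flf RIP-Cre (1.00, SE 0.22, limma adjusted p = 0.00296), by 0.75 (SE 0.21, adjusted p = 0.0336) in Rbp2flf RIP-Cre and by 0.69 (SE 0.21, adjusted p = 0.0218) in the double knockout. It read 10.22, 11.06 and 10.23 in wt, 10.41, 10.34 and 10.15 in RIP-Cre, 11.50, 11.03 and 11.37 in Men1flf RIP-Cre, 11.18, 11.11, 10.92 and 10.99 in Rbp2flf RIP-Cre and 10.47, 11.25, 10.90 and 11.35 in the double knockout. All knockout arrays were above RIP-Cre, but wt array 2 reached the level of the knockouts. A second probe set of Cycs moved alike (1.05, adjusted p = 0.00235 in Men1flf RIP-Cre). The third, with a mean of 5.95, read 5.05, 6.27 and 5.30 in RIP-Cre and 5.93, 6.28 and 6.27 in Men1flf RIP-Cre, a difference of 0.62 with an adjusted p of 0.0511. Cycs has processed pseudogene copies in the mouse genome, and what its probes share with them was not analysed here.

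In complex IV, 7 of 9 genes rose in Men1flf RIP-Cre, 5 in Rbp2flf RIP-Cre and 8 in the double knockout. Cox6c, a small membrane subunit, read 10.93, 11.48 and 10.90 in wt, 11.17, 10.98 and 10.74 in RIP-Cre, 12.20, 11.98 and 12.22 in Men1flf RIP-Cre, 11.88, 11.55, 11.40 and 11.42 in Rbp2flf RIP-Cre and 11.52, 12.26, 11.53 and 12.27 in the double knockout. Men1flf RIP-Cre did not overlap the controls or Rbp2flf RIP-Cre, and the double knockout again split into arrays 2 and 4 and arrays 1 and 3. Cox6c rose 2.25-fold in Men1flf RIP-Cre (1.17, SE 0.22, limma adjusted p = 0.00103) and by 0.93 (SE 0.20, adjusted p = 0.00502) in the double knockout, and differed by 0.60 (SE 0.20, adjusted p = 0.0552) in Rbp2flf RIP-Cre. Cox7b, another small membrane subunit, read 9.98, 10.49 and 10.11 in wt, 10.10, 9.99 and 9.84 in RIP-Cre, 11.05, 10.65 and 11.01 in Men1flf RIP-Cre, 10.59, 10.32, 10.29 and 10.05 in Rbp2flf RIP-Cre and 10.43, 10.97, 10.39 and 10.97 in the double knockout. Men1flf RIP-Cre lay above every control and Rbp2flf RIP-Cre array. Cox7b rose by 0.93 (SE 0.19, adjusted p = 0.00155) in Men1flf RIP-Cre and by 0.71 (adjusted p = 0.00836) in the double knockout, and differed by 0.34 (adjusted p = 0.158) in Rbp2flf RIP-Cre.

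Other complex IV genes rose too. Cox4i1, a regulatory subunit, had its widest difference in Rbp2flf RIP-Cre (0.99, SE 0.20, limma adjusted p = 0.0128) and the double knockout (0.96, adjusted p = 0.00425), beside 0.56 (adjusted p = 0.0368) in Men1flf RIP-Cre. Cox7a2, the isoform of the small subunit VIIa found in most tissues, rose by 1.04 (adjusted p = 0.00212) in Men1flf RIP-Cre and by 0.86 (adjusted p = 0.00792) in the double knockout, and differed by 0.30 (95% interval -0.13 to 0.73) in Rbp2flf RIP-Cre. Cox5b, Cox6b1 and Cox8a rose in all 3 knockouts by between 0.35 and 0.61. In Rbp2flf RIP-Cre the call on Cox5b had an adjusted p of 0.0492 and was kept in 4 of 17 fits that each left out 1 array. The call on Cox8a there was kept in 9 of the 17.

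Cox6a1 and Cox5a had the lowest moderated t of complex IV in Men1flf RIP-Cre. Cox6a1, the widely expressed isoform of subunit VIa, read 10.12, 10.68 and 9.81 in wt, 10.31, 10.28 and 10.06 in RIP-Cre, 10.44, 10.67 and 10.68 in Men1flf RIP-Cre, 11.21, 10.87, 10.80 and 10.97 in Rbp2flf RIP-Cre and 10.85, 10.93, 10.55 and 11.13 in the double knockout. No knockout array overlapped RIP-Cre, and wt array 2 was among the Men1flf RIP-Cre values. The rises were 0.75 (SE 0.17, limma adjusted p = 0.0200) in Rbp2flf RIP-Cre and 0.65 (SE 0.17, adjusted p = 0.0125) in the double knockout, beside 0.38 (SE 0.19, adjusted p = 0.0896) in Men1flf RIP-Cre. Cox5a, which sits on the matrix side of the complex, read 8.84, 9.22 and 8.88 in wt, 8.98, 8.86 and 9.03 in RIP-Cre, 9.01, 8.75 and 9.19 in Men1flf RIP-Cre, 9.01, 9.08, 9.14 and 8.93 in Rbp2flf RIP-Cre and 8.86, 9.05, 9.16 and 9.13 in the double knockout. All groups overlapped. Its differences were 0.03, 0.08 and 0.09, and the 95% interval in Men1flf RIP-Cre ran from -0.24 to 0.29.

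In complex V, 9 of 11 genes rose in Men1flf RIP-Cre, 7 in Rbp2flf RIP-Cre and 8 in the double knockout. Atp5j, a coupling factor of the peripheral stalk, read 9.30, 9.80 and 9.43 in wt, 9.59, 9.33 and 9.16 in RIP-Cre, 10.68, 10.58 and 10.77 in Men1flf RIP-Cre, 10.71 on array 1 and 9.85 to 10.07 on arrays 2 to 4 of Rbp2flf RIP-Cre and 10.17, 11.02, 10.17 and 10.96 in the double knockout. No knockout array overlapped a control array. Atp5j rose 2.49-fold in Men1flf RIP-Cre (1.32, SE 0.24, limma adjusted p = 0.00104), by 0.80 (SE 0.23, adjusted p = 0.0358) in Rbp2flf RIP-Cre and by 1.22 (SE 0.23, adjusted p = 0.00277) in the double knockout. Atp5h, subunit d of the same stalk, read 9.62, 10.23 and 9.51 in wt, 9.90, 9.73 and 9.50 in RIP-Cre, 10.79, 10.73 and 10.76 in Men1flf RIP-Cre, 10.78, 10.39, 10.22 and 10.39 in Rbp2flf RIP-Cre and 10.21, 10.73, 10.41 and 10.85 in the double knockout. The knockouts lay above RIP-Cre, and the lowest Rbp2flf and double-knockout arrays were level with wt array 2. Atp5h rose by 1.05 (SE 0.19, adjusted p = 0.00103), 0.74 (SE 0.18, adjusted p = 0.0233) and 0.84 (SE 0.18, adjusted p = 0.00490). Its other 2 probe sets rose in Men1flf RIP-Cre by 1.07 and 0.95.

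Genes of the catalytic head and the rotor rose too. Atp5b, the beta subunit that makes ATP, rose by 1.00 (SE 0.19), 0.71 (SE 0.18) and 0.78 (SE 0.18), with limma adjusted p of 0.00130, 0.0253 and 0.00656. Atp5a1, the alpha subunit, rose by 0.83, 0.64 and 0.73. Atp5d, the delta subunit of the central stalk, rose by 0.78, 0.72 and 0.77, and Atp5o, the subunit that joins the peripheral stalk to the head, by 0.70, 0.85 and 0.79. Atp5g1 and Atp5g3 encode the same mature subunit of the membrane ring. Atp5g3 rose by 0.43, 0.49 and 0.57, and Atp5g1 by 0.73 and 0.95 in Men1flf RIP-Cre and the double knockout, beside 0.70 (adjusted p = 0.0513) in Rbp2flf RIP-Cre. Atp5c1, the gamma subunit of the rotor, passed the test in Men1flf RIP-Cre (0.38, adjusted p = 0.0124), and its differences were 0.16 (adjusted p = 0.278) in Rbp2flf RIP-Cre and, for the double knockout, 0.27 (adjusted p = 0.0578).

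Atp5e and Atp5k passed in no knockout. Atp5e, the epsilon subunit of the central stalk, read 9.19, 9.49 and 9.19 in wt, 9.42, 9.36 and 9.18 in RIP-Cre, 9.28, 9.40 and 9.28 in Men1flf RIP-Cre, 9.29, 9.44, 9.32 and 9.40 in Rbp2flf RIP-Cre and 9.37, 9.26, 9.19 and 9.39 in the double knockout. Its mean was 9.32 in both RIP-Cre (SD 0.12) and Men1flf RIP-Cre (SD 0.07), with a 95% interval of the difference from -0.21 to 0.21. Atp5k, the membrane subunit e, read 9.58, 9.86 and 9.43 in wt, 9.76, 9.45 and 9.44 in RIP-Cre, 9.52, 9.45 and 9.58 in Men1flf RIP-Cre, 9.45, 9.46, 9.58 and 9.95 in Rbp2flf RIP-Cre and 9.57, 9.36, 9.79 and 9.75 in the double knockout. The groups overlapped, and the differences of Atp5k were -0.03 (95% interval -0.35 to 0.29), 0.06 and 0.07.

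**Figure D4:**
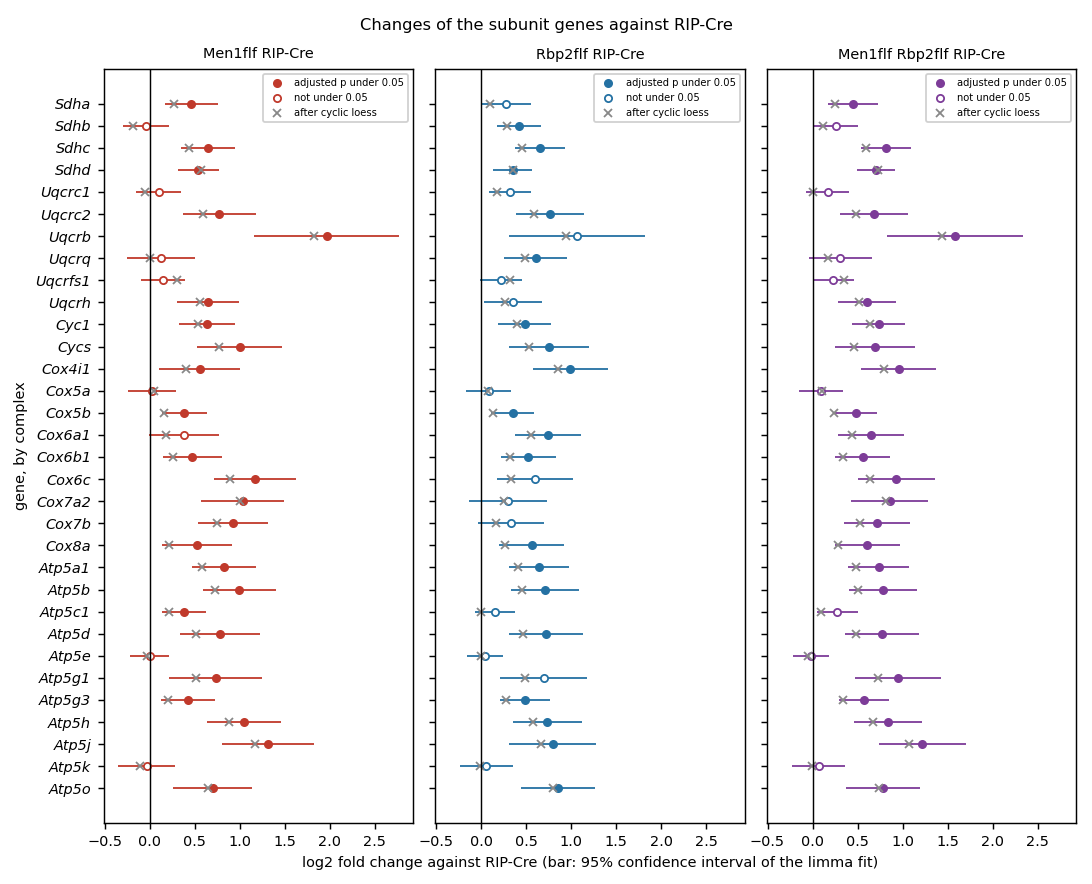
Log2 fold change of each subunit gene against RIP-Cre in the 3 knockouts, with the 95% confidence interval of the limma fit, filled points for an adjusted p under 0.05 and grey crosses for the value after cyclic loess. Filled points number 24, 19 and 24, and Uqcrc1, Uqcrfs1, Cox5a, Atp5e and Atp5k are open in all 3 panels.

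By call, 16 genes rose in all 3 knockouts: Sdhc, Sdhd, Uqcrc2, Cyc1, Cycs, Cox4i1, Cox5b, Cox6b1, Cox8a, Atp5a1, Atp5b, Atp5d, Atp5g3, Atp5h, Atp5j and Atp5o. The 3 comparisons share the RIP-Cre arrays, and the share of all genes called in all 3 was not analysed here. In Rbp2flf RIP-Cre 8 of the 32 genes were called after cyclic loess, and 0 without RIP-Cre array 3. Of all genes 5.52% and 0.622% were called higher in these 2 settings. A further 7 rose in Men1flf RIP-Cre and the double knockout and missed the threshold in Rbp2flf RIP-Cre (Sdha, Uqcrb, Uqcrh, Cox6c, Cox7a2, Cox7b and Atp5g1). Such a pattern of calls does not show that the knockouts differ, which was tested directly.

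Set against each other, with the spread estimated over all 17 arrays, Men1flf RIP-Cre and Rbp2flf RIP-Cre differed in 3 of 32 subunit genes. This was near the share over all genes. When only their own arrays were fitted 6 differed (4 higher, 2 lower), beside 6.44% of all genes higher and 7.98% lower. Cox7a2 (0.74, SE 0.20, limma adjusted p = 0.0257) and Cox7b (0.59, SE 0.17, adjusted p = 0.0334) were higher in Men1flf RIP-Cre, against 5.71% of all genes higher. Sdhb was lower (-0.46, SE 0.11, adjusted p = 0.0149), against 7.07% of all genes lower. In Cox7a2 the 3 Men1flf RIP-Cre arrays read 10.01, 9.83 and 10.02 and the 4 Rbp2flf RIP-Cre arrays 9.46, 9.20, 9.14 and 9.06. The groups of all 3 genes did not overlap, and the share of all genes without overlap was not analysed here. The call on Sdhb was kept with the array median as a covariate (-0.52, adjusted p = 0.00889) and after cyclic loess (-0.47, adjusted p = 0.00541), and lost without Men1flf RIP-Cre array 1. Cox7a2 and Cox7b were called in 12 of 17 fits that each left out 1 array, and missed the threshold with the array median as a covariate (adjusted p = 0.0664 and 0.0898). That fit called 0 subunit genes higher and 4 lower (5.08% and 6.25% of all genes), and cyclic loess 3 higher and 2 lower (8.36% and 6.75%). The second probe set of Cox7b differed by 0.24 (adjusted p = 0.391). Uqcrb differed by 0.90 with an adjusted p of 0.107.

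No subunit gene differed by limma between the double knockout and either single knockout. Against Men1flf RIP-Cre the median was 0.07, 1.67% of all genes were called, and 1 subunit gene, Sdhb, had an unadjusted p under 0.05 (0.30, 95% interval 0.06 to 0.55, adjusted p = 0.236). The next were Cox4i1 (0.40, adjusted p = 0.370) and Sdhd (0.16, adjusted p = 0.470). Against Rbp2flf RIP-Cre the median was 0.08, 1.20% of all genes were called, and 3 subunit genes had an unadjusted p under 0.05: Sdhd (0.35, adjusted p = 0.0830, and 0.0191 with the array median as a covariate), Cox7a2 (0.56, adjusted p = 0.198) and Cox7b (0.38, adjusted p = 0.349). The double knockout's own arrays were far apart, with a mean over the 32 genes of 10.30 and 10.31 on arrays 1 and 3 and 10.69 and 10.73 on arrays 2 and 4.

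The interaction asked whether the effect of losing Rbp2 was the same with and without Men1. It was below 0 in 31 of 32 subunit genes, with a median of -0.48 against 0.20 for all genes, which means that the double knockout lay below the sum of the single changes. No subunit gene was called by limma over all 17 arrays, while 3.39% of all genes were, and 14 of 32 subunit genes and 36.7% of all genes had an unadjusted p under 0.05. The nearest to a call were Atp5h (-0.95, 95% interval -1.48 to -0.41, adjusted p = 0.0512), Atp5b (-0.92, adjusted p = 0.0521) and Cycs (-1.06, adjusted p = 0.0529). Other settings made calls, all below 0, given here with the share of all genes called lower. They were 6 with only the arrays compared (3.19%), 5 without genes below the 25th percentile of intensity (4.86%) and 5 with pooled controls (6.20%). There were 4 with an intensity trend (3.11%), 1 after quantile normalization (1.38%) and 6 without wt array 2 (4.42%) or double-knockout array 2 (3.77%). Of all genes 10.1% were called higher with pooled controls and 5.78% without wt array 2. The interaction also moved with level, at a median of -0.18 for all genes of the highest decile. After cyclic loess the medians were -0.30 for the 32 genes and 0.04 for all genes, and with the array median as a covariate -0.08 and 0.02.

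The other genes of these complexes did not move as a block. Of 12 further subunits of complexes III to V, 3 rose and 1 fell in Men1flf RIP-Cre (median 0.18). In Rbp2flf RIP-Cre 2 rose (median 0.27), and in the double knockout 5 (median 0.32). The shares higher were 25%, 16.7% and 41.7%, beside 15.7%, 6.70% and 13.0% of all genes. The medians of all genes were -0.23, -0.13 and -0.15. Atp5md, a small subunit of complex V, rose by 1.86 (limma adjusted p = 0.000939) in Men1flf RIP-Cre and by 1.38 (adjusted p = 0.00639) in the double knockout, and differed by 0.73 (adjusted p = 0.106) in Rbp2flf RIP-Cre. Atpif1, which inhibits ATP hydrolysis by complex V, rose by 0.60 in Men1flf RIP-Cre, and Uqcr10, a small complex III subunit, fell there by 0.40 (adjusted p = 0.00736). Of 7 isoforms restricted to other tissues, 5 fell in Men1flf RIP-Cre (median -0.45), where 37.8% of all genes fell. Among these 5 were the hypoxia-linked Cox4i2 (-0.60) and the testis form Cox8c (-0.58). Cyct (-0.15) and Cox6a2 (0.38) did not pass the test there. After cyclic loess 2 of the 7 fell in Men1flf RIP-Cre. With Rbp2 targeted alone 0 of the 7 fell, beside 6.70% of all genes. For the double knockout the count was 1, beside 20.6% of all genes. The 6 subunits encoded by mitochondrial DNA had no probe set naming them and were not analysed here.

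Assembly factors build the complexes. Of 30 measured, 10 rose and 3 fell in Men1flf RIP-Cre (median 0.14), 4 rose and 1 fell in Rbp2flf RIP-Cre, and 10 rose and 2 fell in the double knockout. The shares higher were 33.3%, 13.3% and 33.3%, beside 15.7%, 6.70% and 13.0% of all genes. After cyclic loess 13 rose and 1 fell in Men1flf RIP-Cre (median 0.30), and 4 and 7 rose and none fell in the other knockouts. Coa3, needed to make the first complex IV subunit, rose by 0.85 (limma adjusted p = 0.00263) in Men1flf RIP-Cre and by 0.82 in the double knockout. Hccs, which attaches haem to cytochrome c, rose by 0.36 in Men1flf RIP-Cre, while the haem A enzyme Cox10 (-0.34) and the Rieske chaperone Lyrm7 (-0.39) fell there. Lyrm7 differed by -0.11 (adjusted p = 0.413) after cyclic loess. Among 12 regulators of mitochondrial genes, 4 rose and 4 fell in Men1flf RIP-Cre (33.3% each, beside 15.7% and 37.8% of all genes). Tfam, which packages and transcribes mitochondrial DNA, rose by 0.92 (adjusted p = 0.000818), and Tfb2m, its partner in transcription, by 0.58. The mitochondrial RNA polymerase gene Polrmt fell by 0.40 and the coactivator gene Pprc1 by 0.45.

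Neighbouring mitochondrial groups can be set beside the subunit genes. Of all genes 15.7%, 6.70% and 13.0% rose in Men1flf RIP-Cre, Rbp2flf RIP-Cre and the double knockout. Of 34 complex I genes, 14 rose and 2 fell in Men1flf RIP-Cre (median 0.30), 14 rose in Rbp2flf RIP-Cre (median 0.33) and 20 in the double knockout (median 0.35). Ndufb6, an accessory subunit, rose by 1.46 in Men1flf RIP-Cre, and Ndufb7 fell by 0.49. Of 15 citric acid cycle genes, 9, 8 and 9 rose, among them Pdha1, of the pyruvate dehydrogenase that feeds the cycle (0.71, limma adjusted p = 0.00104 in Men1flf RIP-Cre). Fumarase Fh1 was at -0.44 (adjusted p = 0.118) there. Of 9 carriers and outer membrane proteins, 8, 6 and 8 rose, with medians of 0.96, 0.60 and 0.76, and the adenine nucleotide carrier Slc25a4, which exports ATP, rose by 1.05 (adjusted p = 0.000310) in Men1flf RIP-Cre. Mitochondrial ribosomal proteins had 16 of 77 higher and 11 lower in Men1flf RIP-Cre (median -0.02). In Rbp2flf RIP-Cre 15 were higher and 3 lower (median 0.11), and in the double knockout 22 and 8 (median 0.09). The bright cytosolic ribosomal proteins, a group with no part in respiration, had 14 of 59 higher and 9 lower in Men1flf RIP-Cre (median 0.12). After cyclic loess this became 6 higher and 17 lower (median -0.13). In Rbp2flf RIP-Cre 6 were higher and 2 lower (2 and 2 after cyclic loess). In the double knockout 20 were higher and 4 lower (8 and 10 after cyclic loess).

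**Figure D5:**
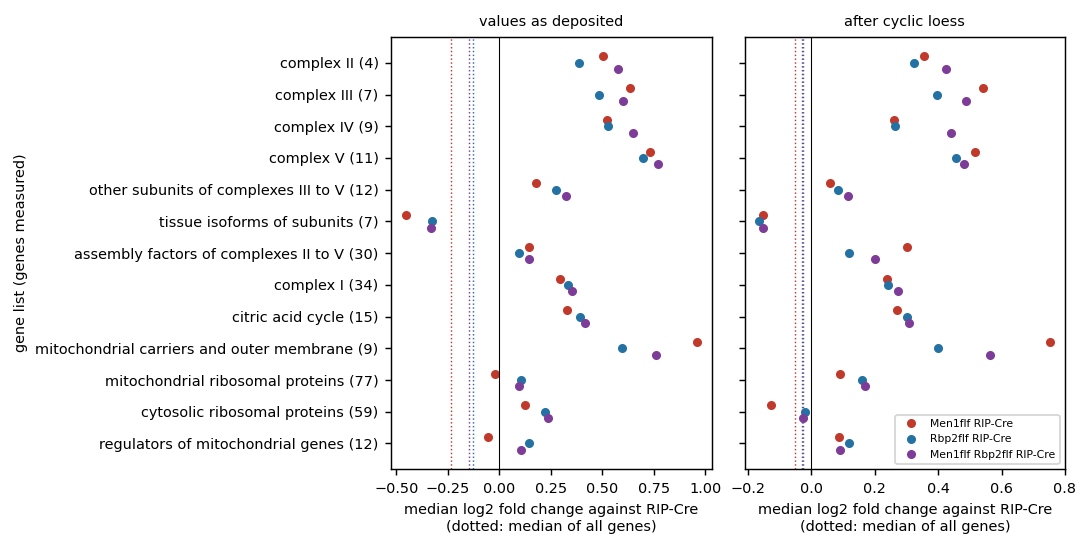
Median log2 fold change against RIP-Cre of gene lists (rows, with the number measured) in the 3 knockouts, as deposited (left) and after cyclic loess (right), with dotted lines at the median of all genes. Medians of complexes II to V lie above the dotted lines in both panels, mitochondrial carriers reach 0.96, and cytosolic ribosomal proteins pass from above 0 to -0.13 in Men1flf RIP-Cre.

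Markers of islet cell types moved alongside, and their part in these results was not tested. Of 9 beta cell markers 6 rose in Men1flf RIP-Cre, 3 in Rbp2flf RIP-Cre and 6 in the double knockout. Of all genes 15.7%, 6.70% and 13.0% rose, and of those in the highest decile of level 40.7%, 25.7% and 39.8%. In Men1flf RIP-Cre G6pc2 rose by 1.35 and Glp1r by 1.29, while Mafa differed by -0.15 (-0.39 after cyclic loess). After cyclic loess 5, 1 and 3 beta cell markers rose and 3 fell in the double knockout. Their mean over markers was 11.5 to 12.1 in RIP-Cre and 12.4 to 12.5 in Men1flf RIP-Cre. It was 12.2 to 12.4 in Rbp2flf RIP-Cre and 12.3 to 12.5 in the double knockout. In Men1flf RIP-Cre Ins2 differed by 0.12 (limma adjusted p = 0.163), and by -0.31 after cyclic loess (adjusted p = 0.0952). Of 6 markers of other endocrine cells 3 fell in both groups that lack Men1 (5 and 4 after cyclic loess), where 37.8% and 20.6% of all genes fell. Their mean was 10.74 to 11.40 in RIP-Cre, 10.40 to 10.61 in Men1flf RIP-Cre, 11.04 to 11.11 in Rbp2flf RIP-Cre and 10.69 to 11.03 in the double knockout. All 3 Schwann cell markers fell in Men1flf RIP-Cre and in the double knockout. Of 9 acinar markers 1 fell in Men1flf RIP-Cre, and their mean spread widely within groups, from 7.98 to 10.7 in RIP-Cre, 8.51 to 10.6 in Men1flf RIP-Cre, 8.25 to 9.50 in Rbp2flf RIP-Cre and 8.39 to 10.7 in the double knockout. In Men1flf RIP-Cre 3 of 5 duct, 2 of 7 endothelial and 2 of 2 red blood cell markers fell (1, 1 and 0 after cyclic loess), beside the 37.8% of all genes that fell. There 3 of 8 macrophage markers (5 after cyclic loess) and 1 of 7 mesenchymal markers rose, and 1 of 7 lymphocyte markers rose and 1 fell. In Rbp2flf RIP-Cre 2 endothelial markers rose (1 after cyclic loess), 1 duct marker fell (none after cyclic loess) and 1 mesenchymal marker rose. Of all genes 6.70% rose and 6.70% fell there. In the double knockout 3 macrophage markers (5 after cyclic loess), 1 lymphocyte and 1 mesenchymal marker rose, beside 13.0% of all genes. There 2 endothelial markers and 1 duct marker fell, beside 20.6% of all genes. None of these markers was at 0 on an array.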

How the data were processed

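The authors deposited log2 intensities, 1 for each of 35512 probe sets on 17 arrays, with labelling by biotin per the labels' protocols. The sources used here name no background correction, normalization or software for these values. A log base of 2 followed from the grid of low values, since 82.3% of those between 0 and 3 lay at log2 of multiples of 0.25, against 9.03% of all 2-decimal values there. The 75th percentile was 8.92 to 8.95 on every array. Arrays carry no counts, and their number limits the precision. No array copied another (smallest root mean square difference 0.357).

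Probe sets were named by the platform's gene table, in which 21789 name 1 gene, 1621 several, and 12102 are not listed. Group means over all 17 arrays were fitted with limma 3.58.1 (lmFit, eBayes) in R 4.3.3, in 8 comparisons, with Benjamini-Hochberg adjustment over 19938 genes, and called under 0.05. The procedure was tested on simulated data. Per-array values were given for Uqcrb, complex II and the 2 highest and 2 lowest moderated t of complexes III, IV and V in Men1flf RIP-Cre against RIP-Cre. Elsewhere called genes, or the 3 with the largest t, were named, and up to 2 highest and 2 lowest of each other list. The 32 genes, all lists, the rules and the alternatives were chosen with earlier results of these data known, and the motifs after the values were seen. The titles' repeat numbers were not treated as pairs: correlations of deviations ran from -0.30 to 0.45 (median 0.01) for 31 same-numbered pairs. Alternatives were cyclic loess and quantile normalization, a covariate for each array's median, blocking on the repeat number, an intensity trend with robust variances, only the arrays compared, other controls, a second probe set, the exclusion of genes below the 25th percentile of intensity, and of arrays.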

Additional observations from a re-analysis of the deposited data

Results flagged for a closer look

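In groups of 4 arrays, the highest or lowest array was compared with the gap to its nearest neighbour, and 5 of 64 groups stood out, where chance gives about 1 in 20. In Rbp2flf RIP-Cre, array 1 was the highest for Uqcrb (10.71), and array 3 was the highest for Uqcrfs1 (8.36) and the lowest for Atp5g3 (10.81). In the double knockout, array 3 was the lowest for Cox8a (11.93) and array 4 the highest for Atp5o (10.11).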

How the results depend on the processing

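Counts of called subunit genes against RIP-Cre are 24, 19 and 24 for Men1flf RIP-Cre, Rbp2flf RIP-Cre and the double knockout. With the array median as a covariate they were 0, 0 and 1, beside 1.06%, 0.16% and 0.86% of all genes higher. Cox4i1 (-0.0053) and Cox8a (-0.011) then turned below 0 in Men1flf RIP-Cre. The count in Rbp2flf RIP-Cre was 8 after cyclic loess, 7 without wt 1, wt 3 and RIP-Cre 3, and 10 with wt as the control. Of all genes 5.52% were called higher there after cyclic loess, and 4.66% with wt as the control. For the double knockout against Rbp2flf RIP-Cre the count was 1 with the array median, beside 1.36% of all genes higher and 1.19% lower. Men1flf RIP-Cre against Rbp2flf RIP-Cre had 5 after cyclic loess, 5 after quantile normalization and 6 with only the arrays compared. There the shares of all genes called higher were 8.36%, 5.62% and 6.44%, and lower 6.75%, 8.32% and 7.98%. The interaction had 1 after quantile normalization, 5 with the filter, 4 with an intensity trend, 6 with only the arrays compared and 5 with pooled controls. Over all genes the interaction was called lower in 1.38% after quantile normalization and in 6.20% with pooled controls. With the repeat number as a replicate block the interaction had 4, beside 3.82% of all genes lower and 5.87% higher. The other counts were then 24, 18 and 24 against RIP-Cre, beside 15.8%, 5.82% and 11.9% of all genes higher. Between single knockouts the count was 2, beside 4.96% of all genes higher and 5.96% lower. Leaving out 1 array at a time gave 17 to 25, 0 to 21 and 16 to 26 against RIP-Cre, 0 to 1 for the double knockout against Rbp2flf RIP-Cre, 0 to 6 between single knockouts and 0 to 6 for the interaction, with 0 for the double knockout against Men1flf RIP-Cre and for RIP-Cre against wt. Over single genes and alternatives, 6458 values kept their side of the threshold, 245 lost a call, 111 gained 1 and 2 reversed. Values without a call in either fit were counted as kept whatever their direction, so changes of direction among them are not in these counts. The causes were not tested.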
